A study of Mus musculus with 9 samples.

Results

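The genes of the 3 C1q chains (C1qa, C1qb, C1qc) and of the 2 anaphylatoxin receptors (C3ar1, C5ar1) were followed through cultured synovial fibroblasts of mouse paws. They were chosen by name as the recognition subunit of the classical complement pathway and the receptors of its small cleavage products, and they are 5 of the 47729 genes in the deposited table. All 5 were among the 15623 genes tested. Each value is shown beside Lyz2, the lysozyme gene of macrophages, in the same library.

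The cells came from collagenase-digested paws of wild-type BALB/c mice and are labelled synovial fibroblasts. They were cultured for 5 passages, and the RNA is labelled day 18. Naive paws (3 libraries) had no injection, non-primed paws (3 libraries) were right paws given monosodium urate (MSU) crystals on day 9, and primed paws (3 libraries) were left paws given the crystals on day 0 and again on day 9. MSU crystals are the crystals of gout. Priming and paw side cannot be told apart in this design. The labels name no animal, so a primed and a non-primed library may share a mouse, and p-values measure only the spread between these libraries. The plan compares paws injected 1 or 2 times with naive paws, and primed with non-primed paws.

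C1q is built from A, B and C chains in equal number, each with a collagen-like stalk and a globular head. Its heads bind antibody complexes, dying cells and crystal surfaces, and bound C1q activates the proteases C1r and C1s, which cleave C4 and C2 and so lead to C3 cleavage. Most complement proteins are made in liver, whereas C1q is made mainly by macrophages and related myeloid cells. C3a and C5a, the anaphylatoxins, are cut from C3 and C5 and act on C3ar1 and C5ar1, G-protein-coupled receptors of myeloid cells.

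The C1q genes are neighbours on mouse chromosome 4 (GRCm38, GENCODE M21), all on the minus strand. C1qb (ENSMUSG00000036905) lies at chr4:136880129-136886187, C1qc (ENSMUSG00000036896) at chr4:136889804-136893065 and C1qa (ENSMUSG00000036887) at chr4:136895917-136898803. The gaps between them are 3616 and 2851 bases, and the whole cluster spans 18675 bases. C3ar1 (ENSMUSG00000040552) lies at chr6:122847138-122856161 and C5ar1 (ENSMUSG00000049130) at chr7:16246743-16259540, 2588 bases from its relative C5ar2. None of the 5 genes overlaps another annotated gene.

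The promoter table of RefSeq (GRCm38.p6) held windows of 300 bases, from 250 before to 50 after the start, for 4 of the 5 genes (C1qb, C1qc, C3ar1 and C5ar1). The stretches upstream of the annotated starts are given for the 3 genes with a motif match. All 3 are on the minus strand and are written 5′ to 3′: C1qb at chr4:136886201-136886450, C1qc at chr4:136893066-136893164 and C3ar1 at chr6:122856162-122856407. Capitals mark the core of the myeloid factor PU.1 (GAGGAA, or TTCCTC read from the other strand) in the C1q genes and an AP-1 site (TGACTCA) in C3ar1.
C1qb: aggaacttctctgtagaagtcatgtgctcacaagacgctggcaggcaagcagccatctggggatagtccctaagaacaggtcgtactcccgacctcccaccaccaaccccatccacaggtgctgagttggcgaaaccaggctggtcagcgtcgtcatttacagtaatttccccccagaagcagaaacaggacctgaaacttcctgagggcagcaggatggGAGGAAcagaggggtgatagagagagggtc
C1qc: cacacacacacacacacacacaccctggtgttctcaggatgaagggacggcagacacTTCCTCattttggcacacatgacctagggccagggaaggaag
C3ar1: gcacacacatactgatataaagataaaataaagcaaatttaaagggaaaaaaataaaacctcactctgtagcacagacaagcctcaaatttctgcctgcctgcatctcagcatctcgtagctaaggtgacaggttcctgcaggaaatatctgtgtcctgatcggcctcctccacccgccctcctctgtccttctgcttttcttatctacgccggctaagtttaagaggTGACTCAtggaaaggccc
The windows were searched on both strands for 5 motifs; no match overlapped another. The PU.1 core stood 30 bases before the RefSeq start of C1qb and 193 bases before that of C1qc, and 28.3% of 32851 promoter windows hold it. The AP-1 motif TGANTCA stood 22 bases before the RefSeq start of C3ar1 and is in 7.81% of windows. The printed C1qc and C3ar1 stretches end at the GENCODE starts, 151 and 4 bases upstream of the RefSeq starts. Their capitals therefore stand closer to the end of the stretch than these distances. The interferon response motif (3.44% of windows), the C/EBP motif TTGCNNAA (10.8%) and the E-box CACGTG (7.15%) matched in none of the 4 windows, and C5ar1 had no match at all. These matches describe letters and not binding.

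Values are regularised logarithms (rlog), a log2 scale adjusted for sequencing depth that pulls weakly sequenced genes towards their own average. The table holds no counts, and library depths are unknown here. The median replicate SD over tested genes was 0.22 for the naive group, 0.10 for the non-primed group and 0.14 for the primed group. All 11 fibroblast markers were tested, and their mean ranged from 13.12 to 13.90 in naive, 13.49 to 13.58 in non-primed and 13.20 to 13.65 in primed libraries. Single markers varied to different degrees. Vim had the narrowest range, 15.36 to 16.05, while Lum ran from 12.84 to 15.34 and Prg4 from 8.34 to 12.01, both extremes in naive libraries. Macrophage markers were also present: 19 of 21 were tested, and their mean ranged from 6.98 to 9.06 in naive, 9.03 to 9.63 in non-primed and 8.84 to 10.01 in primed libraries. Lyz2 stood at 13.09, 15.44 and 12.75 in naive libraries 1 to 3, at 15.51, 16.004 and 15.76 in the non-primed ones and at 16.06, 16.53 and 15.30 in the primed ones. Naive library 2 thus lay 2.52 above the mean of the other 2 naive libraries for Lyz2 and 1.95 above it for the macrophage mean. For the C1q chains and the receptors, the limma comparisons with naive libraries are also given without naive library 2. Those of Lyz2 and of the other genes below are given only with all libraries. In bulk RNA, fewer cells of a type and less RNA per cell cannot be told apart.

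The C1q chains were detected in every library of these fibroblast cultures, with their lowest values in naive libraries 1 and 3. C1qa, the A chain, read 8.46, 10.91 and 8.14 in naive libraries 1 to 3. It read 10.94, 11.74 and 11.03 in the non-primed libraries and 11.23, 12.33 and 10.81 in the primed ones. Naive libraries 1 and 3 lay far below all 6 libraries from injected paws, whereas naive library 2 lay just under the lowest non-primed library and above primed library 3.

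C1qb, the B chain, read 6.30, 8.69 and 6.18 in naive, 8.68, 9.60 and 8.61 in non-primed and 8.93, 10.24 and 8.70 in primed libraries. C1qc, the C chain, read 7.34, 9.66 and 7.01 in naive, 9.78, 10.38 and 9.82 in non-primed and 10.16, 10.96 and 9.55 in primed libraries. Both repeated the pattern of C1qa, with naive library 2 near the libraries of injected paws and replicate 2 the highest of its group. Over the 9 libraries the range was 4.19 for C1qa, 4.05 for C1qb and 3.94 for C1qc.

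C3ar1, the receptor for C3a, read 6.72, 9.06 and 6.36 in naive libraries. It read 8.82, 9.34 and 8.97 in non-primed and 9.30, 9.54 and 8.49 in primed libraries. Naive library 2 exceeded 2 of the 3 non-primed libraries and 1 primed library, so the groups overlapped. C5ar1, the receptor for C5a, read 3.91, 6.17 and 4.04 in naive, 5.14, 6.27 and 5.26 in non-primed and 5.63, 6.46 and 5.20 in primed libraries. It was the lowest of the 5 genes, and naive library 2 exceeded 4 of the 6 libraries from injected paws.

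**Figure D1:**
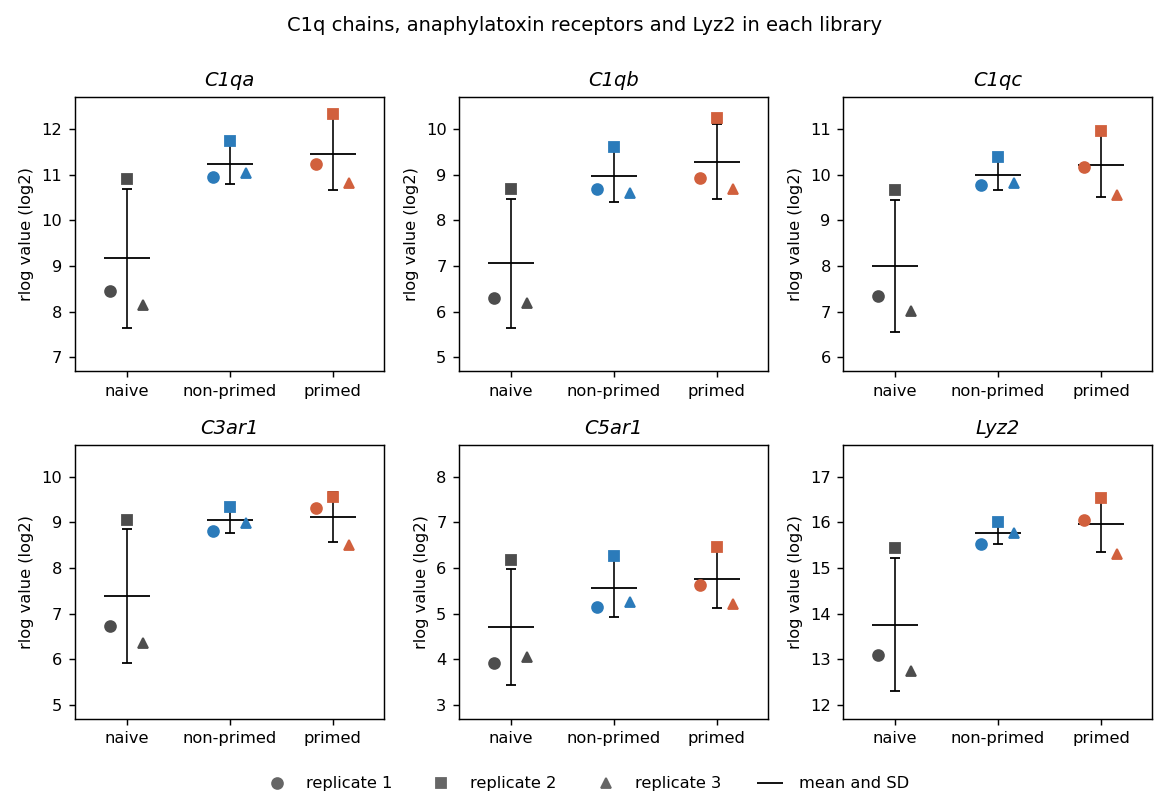
The rlog value (log2) of each C1q chain, each receptor and Lyz2 is plotted by group, with 1 point per library, a horizontal line at the group mean and a bar of 1 SD (n = 3); every panel spans the same 6 log2 units from a different lower end. Naive libraries 1 and 3 lie at the bottom of every panel, and naive library 2 lies close to the libraries of injected paws.

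Levels of different genes were compared after subtracting log2 of the exon length in kilobases. On that per-length rlog scale the mean over 9 libraries was 10.57 for C1qa, 8.46 for C1qc, 8.32 for C1qb, 6.41 for C3ar1 and 3.98 for C5ar1, against 14.76 for Lyz2. The order C1qa, C1qc, C1qb, C3ar1, C5ar1 held in 7 of 9 libraries, and in the other 2 C1qb stood above C1qc. C1qb and C1qc are therefore neighbours in that order that could not be ranked beyond their spread. The chain protein products are used in equal number, and the transcript levels were not equal on this scale.

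The chains kept nearly fixed distances from each other. C1qa minus C1qc had an SD of 0.11 over the 9 libraries, and C1qa minus C1qb had an SD of 0.13, although each chain itself ranged over about 4 log2 units (the ranges given above). C1qb minus C1qc varied slightly more, with an SD of 0.19. Such closeness was not particular to the chains, since C1qc minus Lyz2 had an SD of 0.12. The receptors were less tightly tied, and C3ar1 minus C5ar1 had an SD of 0.47. All 9 libraries enter these SDs, including the library differences the genes share.

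Likeness to other genes was measured as the root mean square distance between profiles centred on their own means, over 9 libraries and all 15623 tested genes. The nearest gene to C1qa was C1qc (0.10), followed by C1qb (0.13), where the median over tested genes was 1.34. The nearest to C1qb was C1qa (0.13), and C1qc ranked 3. Outside the C1q genes, Cyth4 (0.15), Cd72 (0.18), Lcp1 (0.19), Folr2 (0.19) and Lyz2 (0.19) were nearest to C1qa, and Cd72 (0.17), Cyth4 (0.20), Folr2 (0.21), Lcp1 (0.24) and Hcls1 (0.24) to C1qb. For C1qc the nearest gene was Cyth4 (0.07), ahead of C1qa (0.10), and Lyz2 (0.11), Nckap1l (0.12), Lcp1 (0.13) and Tyrobp (0.14) followed. C1qb ranked only 14 for C1qc (0.18).

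The receptors had other nearest genes. C3ar1 was nearest to Rapgef5 (0.10), Fcgr3 (0.11), Ms4a6d (0.12), Laptm5 (0.12) and Myo1f (0.13), and Lyz2 ranked 46 for it. C5ar1 was nearest to Cfp (0.19), Fmnl1 (0.21), Rassf4 (0.23), Ly86 (0.23) and Nlrp3 (0.23), and Lyz2 ranked 378 for it. The median distance over tested genes was 1.11 for C3ar1 and 0.88 for C5ar1. These distances are descriptions of 9 libraries that share their group differences and the position of naive library 2.

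Non-primed paws were first compared with naive paws, with limma fitted to all 9 libraries and Benjamini-Hochberg adjustment over the tested genes (threshold 0.05). C1qa was 2.07 higher on the log2 scale (11.24 ± 0.44 against 9.17 ± 1.51, SD, n = 3 each; SE 0.69, limma adjusted p = 0.219), a 4.20-fold difference. C1qb was 1.90 higher (8.96 ± 0.55 against 7.06 ± 1.42; SE 0.68, limma adjusted p = 0.240) and C1qc 1.99 higher (9.99 ± 0.33 against 8.002 ± 1.44; SE 0.64, limma adjusted p = 0.210). The values of C1qa and C1qc did not overlap between the groups, and those of the other 3 genes did (2 of 5 higher without overlap, against 11.6% of all tested genes). None of these differences passed the threshold.

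The receptors differed less from naive. C3ar1 was 1.66 higher in non-primed libraries (9.04 ± 0.27 against 7.38 ± 1.46; SE 0.63, limma adjusted p = 0.259). C5ar1 was 0.85 higher (5.55 ± 0.62 against 4.71 ± 1.27; SE 0.62, limma adjusted p = 0.559), less than the spread between naive replicates. Lyz2 was 2.00 higher (limma adjusted p = 0.207). In this comparison 0 of the 5 genes passed, where 0.141% of all tested genes did. At an unadjusted limma p below 0.05 the count was 4 of 5, and 15.4% of all tested genes lay there. The median difference of the 5 genes was 1.90, against 0.01 over all tested genes, and C1qa ranked 13th by difference among the 15623.

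Primed paws differed from naive paws by similar amounts. C1qa was 2.29 higher (11.46 ± 0.79, SD, n = 3; limma adjusted p = 0.185), C1qb 2.23 higher (9.29 ± 0.83; limma adjusted p = 0.189) and C1qc 2.22 higher (10.22 ± 0.70; limma adjusted p = 0.171). These ranked 5th, 6th and 7th by difference among the tested genes. C1qb did not overlap between the groups (1 of 5, against 8.97% of all tested genes), with primed library 3 only just above naive library 2.

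C3ar1 was 1.74 higher in primed than in naive libraries (9.11 ± 0.55; limma adjusted p = 0.231) and C5ar1 1.06 higher (5.77 ± 0.64; limma adjusted p = 0.408). Lyz2 was 2.20 higher (limma adjusted p = 0.171). Again 0 of 5 genes passed, where 0.102% of all tested genes did, and 4 of 5 had an unadjusted p below 0.05, against 16.9%. The median difference of the 5 genes was 2.22, against -0.00 over all tested genes. Both comparisons use the same 3 naive libraries, so their likeness is not separate evidence.

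With both kinds of injected paw averaged, C1qa was 2.18 above naive (SE 0.60, limma adjusted p = 0.0985), a 4.53-fold difference. C1qb was 2.07 above naive (SE 0.59, limma adjusted p = 0.110), C1qc 2.11 (SE 0.56, limma adjusted p = 0.0950), C3ar1 1.70 (SE 0.54, limma adjusted p = 0.139) and C5ar1 0.95 (SE 0.53, limma adjusted p = 0.354). The C1q chains came closest to the threshold and did not pass it, where 1.22% of all tested genes did. In a fit with the replicate number as a block the 3 chains passed (C1qa, limma adjusted p = 0.0352, C1qb 0.0278 and C1qc 0.0382). C1qb also passed there for primed against naive (limma adjusted p = 0.0498), although the naive numbers do not pair with the others. Over the 8 alternatives that kept all libraries, this block among them, 77 to 694 tested genes passed for injected against naive. All 5 overlapped between injected and naive libraries, where 6.13% of all tested genes were higher without overlap. Lyz2 did not pass either and was 2.10 above naive (limma adjusted p = 0.0944).

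These calls changed without naive library 2. Without it, C1qa was 2.94 higher in non-primed than in naive libraries (limma adjusted p = 0.0164), and C1qb (2.72, limma adjusted p = 0.0314), C1qc (2.82, adjusted p = 0.0134) and C3ar1 (2.501, adjusted p = 0.0114) passed as well. In primed libraries the differences from the 2 naive libraries left were 3.16, 3.05, 3.05 and 2.57 for C1qa, C1qb, C1qc and C3ar1 (limma adjusted p = 0.0119, 0.0194, 0.0101 and 0.00967). C5ar1 did not pass in either comparison, at 1.58 (adjusted p = 0.123) and 1.79 (adjusted p = 0.0908). Without it 4 of the 5 genes passed in each naive comparison, where 2.27% of all tested genes passed for non-primed, 2.28% for primed and 3.68% for all injected paws. Leaving out any other library gave 0 of 5. This omission was planned for every library in turn, and no label marks naive library 2 as different.

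No difference between primed and non-primed paws was detected in these genes. The primed mean was higher by 0.22 for C1qa (95% interval -1.35 to 1.79), by 0.33 for C1qb (-1.23 to 1.88), by 0.23 for C1qc (-1.24 to 1.70), by 0.07 for C3ar1 (-1.35 to 1.495) and by 0.21 for C5ar1 (-1.19 to 1.61). Each limma adjusted p was 1.00, and all 5 genes overlapped between the groups, where 6.31% of all tested genes were higher without overlap. In this comparison 0 of 5 genes passed and 0% of all tested genes did with limma, while 1.26% of genes and 0 of 5 members had an unadjusted p below 0.05. The intervals allow differences of more than 2-fold either way. Without primed library 2, the highest for all 5 genes, the signs turned: -0.22 for C1qa, -0.15 for C1qb, -0.14 for C1qc, -0.14 for C3ar1 and -0.14 for C5ar1. That omission keeps non-primed library 2, which is also the highest of its group and may be paired with it by number. Between same-numbered libraries, C1qb was higher in the primed one in 3 of 3 pairs (0.25, 0.64 and 0.087), and the other 4 genes in 2 of 3. Without both libraries numbered 2, a comparison added after the data were seen, the mean difference was 0.032 for C1qa, 0.17 for C1qb, 0.057 for C1qc, 0.0045 for C3ar1 and 0.22 for C5ar1.

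**Figure D2:**
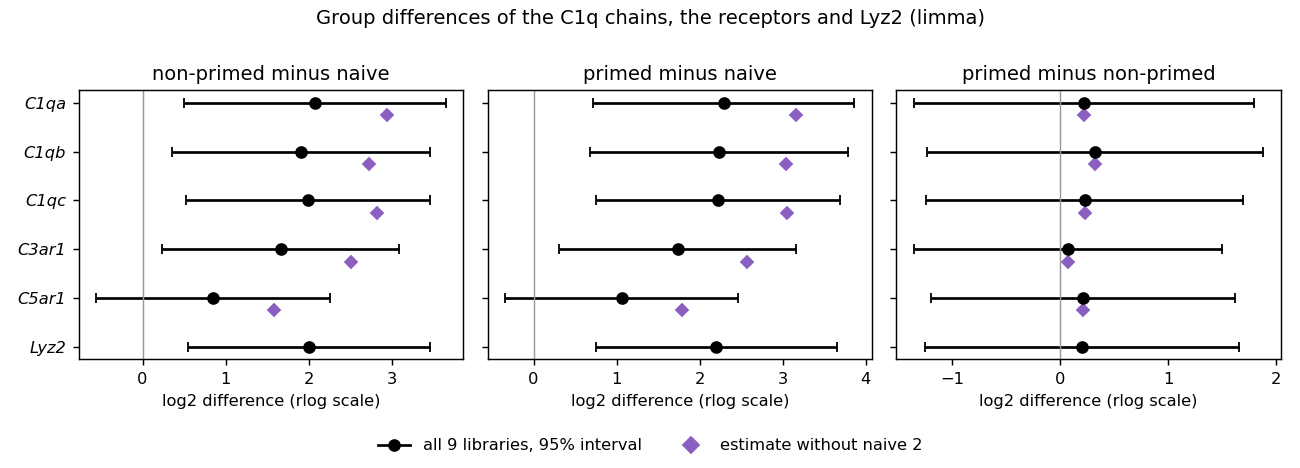
Group differences in log2 units on the rlog scale are plotted for each gene and Lyz2, with circles and bars for the limma estimate and its 95% interval over all 9 libraries and diamonds for the estimate without naive library 2 (not drawn for Lyz2). The diamonds lie further from 0 in both naive comparisons, and every interval of primed minus non-primed spans 0.

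Beside Lyz2 in the same library, the values of the C1q chains overlapped between all groups. C1qa minus Lyz2 was -4.59 ± 0.05 in naive (SD, n = 3), -4.52 ± 0.23 in non-primed and -4.50 ± 0.32 in primed libraries. C1qc minus Lyz2 was -5.76 ± 0.02, -5.77 ± 0.16 and -5.74 ± 0.16, and C1qb minus Lyz2 was -6.70 ± 0.11, -6.80 ± 0.37 and -6.67 ± 0.42. Naive library 2, at -4.54 for C1qa, lay with the other naive libraries (-4.63 and -4.61). The injected mean minus the naive mean was 0.08 for C1qa, -0.03 for C1qb and 0.01 for C1qc, each less than the SD over injected libraries (0.25, 0.36 and 0.14).

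The receptors lay lower beside Lyz2 in every injected library than in any naive one, as did 32.3% of all tested genes. C3ar1 minus Lyz2 was -6.37, -6.39 and -6.39 in naive, -6.70, -6.67 and -6.78 in non-primed and -6.75, -6.98 and -6.81 in primed libraries. C5ar1 minus Lyz2 was -9.17, -9.28 and -8.71 in naive, -10.38, -9.74 and -10.50 in non-primed and -10.43, -10.06 and -10.10 in primed libraries. Naive library 2 sat with the other naive libraries for both receptors, unlike in the values before subtraction.

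The injected mean differed from the naive mean by -0.40 for C3ar1 and by -1.15 for C5ar1. For each, the two-sided exact permutation test of 6 libraries against 3 gave p = 0.0238, the smallest it can give. After Benjamini-Hochberg adjustment over the 20 tests of 5 genes and 4 comparisons this became 0.238. Tests of 3 libraries against 3 cannot go below 0.1. With these group sizes no adjusted value could fall below 0.05, so the adjusted tests cannot decide whether either receptor differed. These single-gene tests were added after the data were seen. Of all tested genes, 32.3% lay lower beside Lyz2 in every injected library and 0% higher. Lyz2 itself was higher in injected libraries, and a separation of this kind was common. Among 18 other macrophage markers 3 were lower without overlap (Itgam, Laptm5 and Mrc1) and 15 overlapped.

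The choice of reference mattered for the chains and for C3ar1, and not for the sign of C5ar1. The macrophage mean is taken over the 19 tested markers, Lyz2 among them. Their injected minus naive differences ran from -0.04 (Mertk) to 2.13, with a median of 1.55, against 2.10 for Lyz2. Beside this macrophage mean in place of Lyz2, the mean of the 3 chains was 0.14, 0.70 and 0.13 in naive libraries and 0.72 to 1.16 in injected ones. Every injected library thus lay above every naive one, though naive library 2 was close to the lowest injected one. The share of all tested genes that separate beside this macrophage mean was not computed. The injected minus naive difference of the mean of the 3 chains was 0.02 beside Lyz2, 0.54 beside the macrophage mean and 0.59 beside Csf1r. C1qb, at -0.03 beside Lyz2, was above 0 with all 4 other references. The receptor mean beside the macrophage mean overlapped between naive (-1.91 to -1.44) and injected libraries (-2.05 to -1.83). Whether the chains or the receptors separated the groups thus changed with the reference. With Tyrobp or Adgre1 in place of Lyz2 the C3ar1 difference was -0.36 or -0.24, whereas with Csf1r or the macrophage mean it was 0.17 or 0.12. C5ar1 was lower with all 4, by -1.10 with Tyrobp, -0.99 with Adgre1, -0.58 with Csf1r and -0.63 with the macrophage mean. The rlog scale shrinks differences of weakly expressed genes, C5ar1 has the lowest values of the 5, and the part of this shrinkage in its smaller differences was not tested. Lyz1, a close copy of Lyz2 that can share its reads, lay between 5.04 and 7.88, far under Lyz2 in every library.

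**Figure D3:**
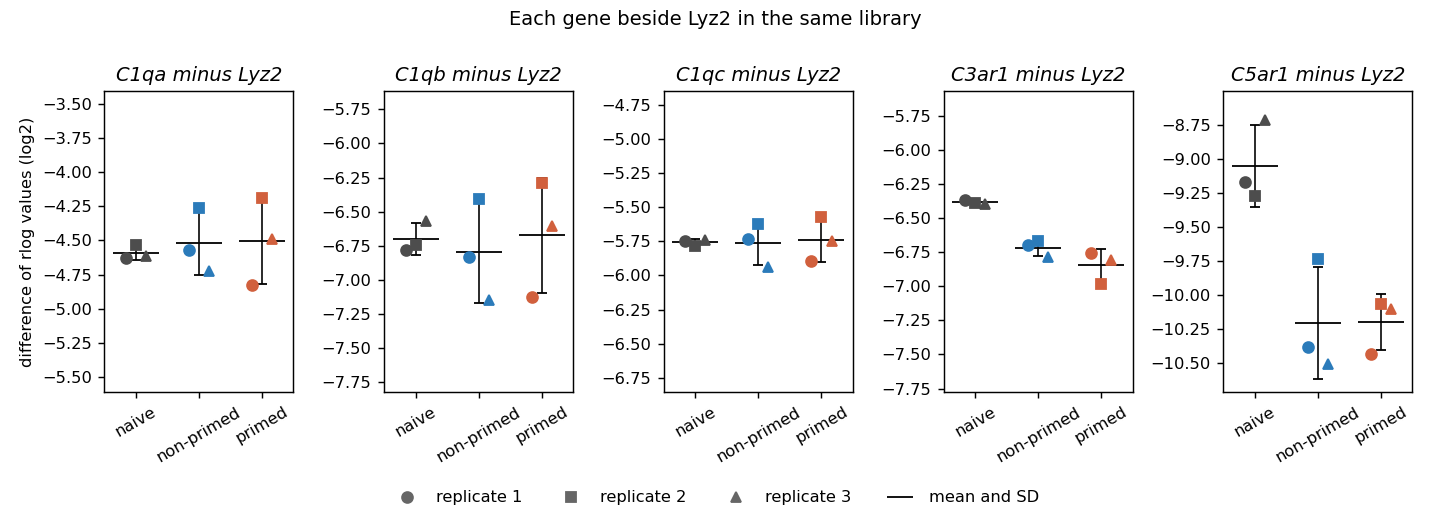
The difference between the rlog value of each gene and that of Lyz2 in the same library (log2) is plotted by group, with 1 point per library, the group mean and 1 SD (n = 3); panels span equal log2 units. The C1q panels show overlapping groups, and the naive points of C3ar1 and C5ar1 lie above all points of injected paws. The same holds for 32.3% of all tested genes.

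The rest of the pathway was read from lists of genes around these 5. All 9 genes of the C1 proteases and the classical pathway were tested, and 4 of 9 were higher and 5 lower in injected than naive libraries, with a median of -0.01 and 0 past the threshold. C3, the precursor of C3a, was 1.08 lower on the log2 scale (-1.08, SE 0.42, limma adjusted p = 0.202), with 11.89, 13.31 and 11.21 in naive, 10.61, 10.81 and 10.95 in non-primed and 11.98, 11.08 and 10.90 in primed libraries. Its highest value was in naive library 2, and its difference from naive without that library is not given. All 3 non-primed libraries lay below the naive ones (-1.35, limma adjusted p = 0.240), and the primed libraries overlapped with them. C2 (0.30), Serping1, the C1 inhibitor (-0.09), C1s2 (-0.12) and C4b (0.22) differed by less, and none passed. All 9 of these genes were higher in primed than in non-primed libraries, by 0.17 to 0.53. Their median difference was 0.29, against 0.0009 over all tested genes. All but C2 and C3 were higher without overlap, where 6.31% of all tested genes were. None passed, and 0% of all tested genes did in this comparison.

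Of 8 genes for anaphylatoxin ligands and their control 4 were tested, with 2 higher, 2 lower and 0 past the threshold (median -0.43). Hc, which encodes C5, was 0.46 higher in injected libraries (limma adjusted p = 0.296). Cpm, a carboxypeptidase that trims anaphylatoxins, differed by -2.40 (limma adjusted p = 0.308), and this came from 1 library: naive library 3 read 9.86 and the other 8 libraries 3.25 to 3.90. C5ar2, the second C5a receptor, read 0.42 to 0.92 and was too low to be tested. Cpb2, another carboxypeptidase, was listed at 0 in all 9 libraries.

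Of 7 genes for proteins that bind C1q or were proposed as its receptors, 5 were higher, 2 lower and 0 past the threshold (median 0.18). Cd93 read 8.10, 9.74 and 7.48 in naive libraries and 9.43 to 10.49 in injected ones, a difference of 1.58 (limma adjusted p = 0.106). Lair1, an inhibitory collagen receptor, was 1.46 higher (limma adjusted p = 0.110), and Scarf1, a scavenger receptor, 0.71 higher (limma adjusted p = 0.206). Naive library 2 was the highest naive library for all 3 of these genes, as it was for the C1q chains. Lrp1, an endocytic receptor, differed by -0.47 (limma adjusted p = 0.180), Megf10 by -0.79, the calreticulin gene Calr by 0.18 and C1qbp by 0.06.

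All 9 tested genes of anaphylatoxin receptor signalling had a higher mean in injected libraries, with a median of 0.23 and 0 past the threshold. The smallest difference was 0.0003 (Gnai3), and 8 of 9 were higher in non-primed and in primed libraries taken separately. The 4 with the smallest p were Pik3cg (1.34) and Pik3r5 (0.69), subunits of the phosphoinositide 3-kinase that G proteins activate, the arrestin Arrb2 (0.75) and the G-protein subunit Gna15 (0.69). Of 20 other genes with a C1q domain 14 were tested, with 9 higher, 5 lower and 0 past the threshold (median 0.10). Adipoq, the adipokine adiponectin, differed by -2.30 (limma adjusted p = 0.145) and Col10a1, a collagen of hypertrophic cartilage, by 1.04 (limma adjusted p = 0.192). Adipoq read 8.64, 8.46 and 5.44 in naive libraries 1 to 3 and 4.30 to 6.56 in injected ones, so naive library 3 lay within the injected range. The differences of Cbln1 (-0.53) and C1qtnf1 (0.29) were smaller. C1qtnf3, singled out after its values were seen, read 12.83 in naive library 3 and 5.19 to 7.33 in the others.

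Markers of other cell types were read beside these genes. Of 19 tested macrophage markers 18 were higher in injected libraries, 16 had an unadjusted p below 0.05, against 19.9% of all tested genes, and 0 passed (median 1.55). Cd68 (1.79), Trem2 (1.93), Spi1, which encodes PU.1 (1.52), and Ptprc (2.04) had the smallest p, with limma adjusted p from 0.0801 to 0.0867. The sum of all 21 macrophage markers ranged from 130.2 to 169.6 in naive, 169.1 to 180.6 in non-primed and 165.7 to 187.9 in primed libraries. The macrophage markers moved with the C1q chains and the receptors, and their part in the results was not tested.

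Most markers of lymphocytes, neutrophils and mast cells were low. All 8 lymphocyte markers were below 3 in every library, and 4 of them were listed at 0 throughout. Of 8 neutrophil markers 7 were below 3 and 2 were at 0 in every library (S100a9 and Cxcr2), while Csf3r was 0.64 higher in injected libraries (limma adjusted p = 0.0901). Of 6 mast cell markers 5 were below 3 in every library and 0 were tested. Of 7 dendritic cell and monocyte genes 5 were below 3 in every library and 2 were tested. Zbtb46, a transcription factor of classical dendritic cells, read 6.37 to 7.44 and was lower in every injected library than in any naive one (-0.54, limma adjusted p = 0.111), and Ly6c2, a monocyte surface gene, read 6.69 to 8.05 (-0.03, limma adjusted p = 0.964). Osteoclast genes had 3 of 7 tested and endothelial genes 3 of 6, and 0 of these passed. Of 11 fibroblast markers 8 were higher and 1 passed, where 1.22% of all tested genes did: Pdpn, a membrane glycoprotein of synovial lining cells, at 0.51 (SE 0.09, limma adjusted p = 0.0367).

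**Figure D4:**
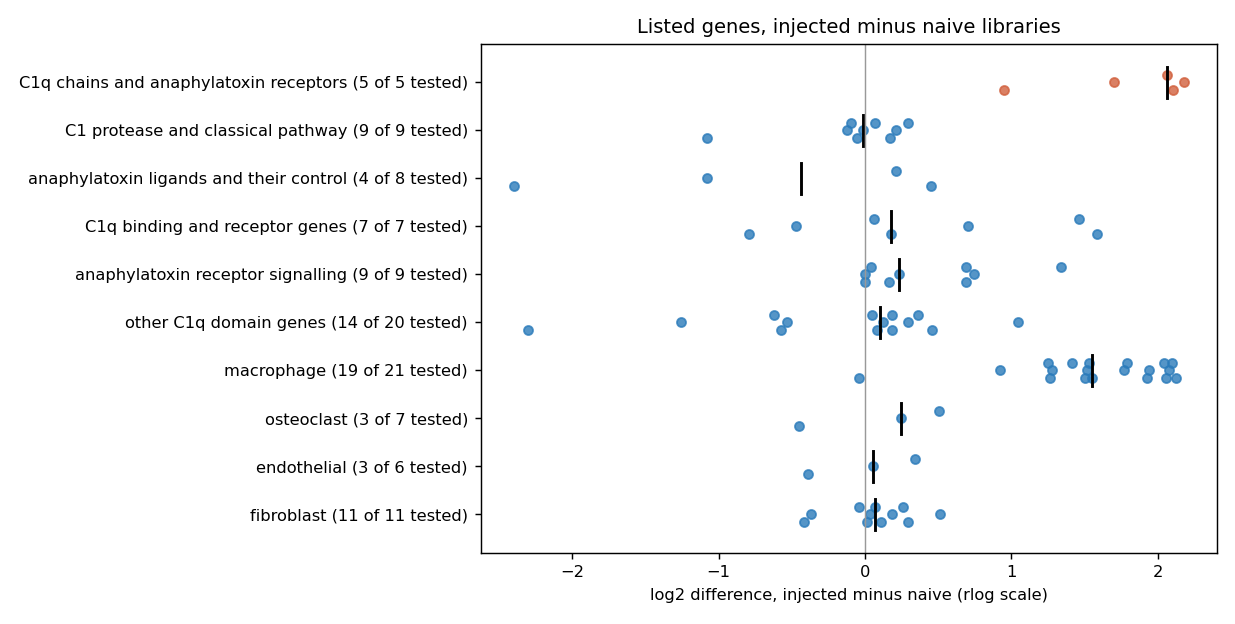
Each point is 1 tested gene, placed at its injected minus naive difference (log2, rlog scale), with genes grouped by list and a vertical bar at each list's median. The C1q chains and receptors, at a median of 2.07, lie beside the macrophage markers, at 1.55, and the other lists shown, those with at least 3 tested genes, have medians between -0.43 and 0.25.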

How the data were processed

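RNA of 9 libraries was profiled with a stranded mRNA library kit, per the labels' protocols. The submitters' processing notes name GRCm38 and the tools DESeq2, featureCounts (Subread 1.6.1), STAR 2.5.4a and cutadapt 2.5. Of the annotation release, strand setting and rlog settings, each is "not given in the sources used here". Values deposited by the authors are rlog values, on a log2 scale, of 47729 genes, of which 19972 do not vary. Depths are unknown without counts, and the precision is that of 3 libraries per group.

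Groups came from the sample titles, and columns were matched by their names. Symbols matched 47224 identifiers. limma 3.58.1 (R 4.3.3) was fitted to all 9 libraries with 1 mean per group and a mean-variance trend, on genes that vary with a mean rlog of at least 3 (12134 removed), two-sided, with Benjamini-Hochberg adjustment. Fold changes are 2 to the power of the rlog difference and understate low genes. Values beside Lyz2 were tested per gene by exact permutation (SciPy 1.17.1); means over several of the 5 genes are given without p. The fit was tested on simulated data. Alternatives were scaling, filter, trend, robust variances, sample weights, 2-group fits, a replicate block and leaving out each library.

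The genes and the 13 lists (130 genes) were chosen with earlier results of these data known. Named are the 5 genes and Lyz2, up to 4 genes per list with the smallest p for injected against naive, up to 4 more in list order for the protease, ligand and C1q-binding lists, and the 5 nearest genes by profile with a symbol. Whether replicate numbers pair libraries was checked from the correlation of deviations from the group means over tested genes: it was 0.42, 0.61 and 0.100 for primed with non-primed libraries 1, 2 and 3, and -0.16 to 0.15 for naive with injected ones, so only primed and non-primed libraries meet the rule of more than 0.1 in every pair, the third narrowly. Differently numbered primed and non-primed libraries had -0.50 to 0.28. The highest of these, non-primed 3 with primed 1, exceeded the third same-numbered pair. Promoter windows are from RefSeq.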

Additional observations from a re-analysis of the deposited data

How the results depend on the processing

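The median difference of the 5 genes moved by less than the spread between replicates in all 74 alternatives run. That spread is the within-group SD of the mean of the 5 genes, which naive library 2 widens, so the bound is loose. For non-primed against naive the median still moved from 1.90 to 2.72 without naive library 2. The median difference stayed above 0 in the naive comparisons. For primed against non-primed it turned to -0.051 with sample weights and to -0.14 without primed library 2. Of the single-gene differences, 349 kept direction and call, 16 came to pass the threshold and 10 changed sign. Over the fits that leave out 1 library, the number of the 5 genes past the threshold ranged from 0 to 4 in each naive comparison, with 4 only without naive library 2. Genes past the threshold ranged from 0 to 355 (non-primed against naive, 22 with all libraries), 0 to 356 (primed against naive, 16) and 0 to 596 (injected against naive, 190). With sample weights these counts were 621, 733 and 694, and 2109 for primed against non-primed (0 otherwise). With no filter they were 0, 0 and 77, and with no mean-variance trend 5, 0 and 109. Robust variances gave 13 for non-primed against naive, and fits of only the 2 groups compared gave 7 and 0; the causes were not tested.

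With the replicate number as a block over all 9 libraries, 51 genes and 1 of the 5 (C1qb, 2.23, limma adjusted p = 0.0498) passed for primed against naive, and 3 of the 5, C1qa (2.18, adjusted p = 0.0352), C1qb (2.07, adjusted p = 0.0278) and C1qc (2.11, adjusted p = 0.0382), passed for injected against naive. Over the 8 alternatives that kept all libraries, this block among them, 77 to 694 tested genes passed for injected against naive. Fits of 2 groups with a replicate block gave 0 genes for each kind of injected paw against naive. The naive numbers do not pair with the others. The block changed no call of the 5 genes for primed against non-primed.

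For primed against non-primed, sample weights turned C1qa to -0.051, C1qc to -0.13 and C3ar1 to -0.25. The ranges without 1 library were -0.22 to 0.54 for C1qa, -0.15 to 0.64 for C1qb, -0.14 to 0.57 for C1qc, -0.14 to 0.38 for C3ar1 and -0.14 to 0.57 for C5ar1. Over omitted libraries the differences from naive ranged as follows: for non-primed against naive, 1.56 to 2.94 for C1qa, 1.46 to 2.72 for C1qb, 1.497 to 2.82 for C1qc, 1.15 to 2.501 for C3ar1 and 0.45 to 1.58 for C5ar1; for primed against naive, 1.78 to 3.16 for C1qa, 1.75 to 3.05 for C1qb, 1.73 to 3.05 for C1qc, 1.23 to 2.57 for C3ar1 and 0.66 to 1.79 for C5ar1; for injected against naive, 1.67 to 3.05 for C1qa, 1.63 to 2.88 for C1qb, 1.61 to 2.93 for C1qc, 1.19 to 2.54 for C3ar1 and 0.56 to 1.68 for C5ar1.

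Beside Lyz2, the mean of the C1q chains differed between non-primed and naive libraries by -0.01, but by 0.49 beside the macrophage mean and 0.57 beside Csf1r; for injected against naive these were 0.02, 0.54 and 0.59. Over omitted libraries its differences were -0.14 to 0.11 (non-primed against naive), -0.10 to 0.20 (primed against naive), -0.088 to 0.21 (primed against non-primed) and -0.045 to 0.075 (injected against naive). The receptor mean beside Lyz2 differed by -0.77 for injected against naive, by -0.20 beside Csf1r and by -0.83 to -0.69 over omitted libraries; with 2 naive libraries the exact test cannot reach the threshold, nor can sign flips over same-numbered libraries (replicate block, -0.77). For primed against non-primed it was -0.06, with -0.15 to 0.068 over omitted libraries. Among single genes beside other references, added after seeing the data, C1qb turned to 0.49 with the macrophage mean, 0.53 with Csf1r, 0.0069 with Tyrobp and 0.13 with Adgre1, and C3ar1 to 0.12 and 0.17 with the first 2. Over omitted libraries C1qb ranged from -0.12 to 0.049, C1qc from -0.029 to 0.044 and C5ar1 from -1.26 to -0.98 (injected against naive).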
